A study of Mus musculus with 8 samples.

Results

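Primordial germ cell-like cells (PGCLCs) and in vitro primordial germ cells (iPGCs), 2 kinds of germ-line cell made in culture from the same mouse embryonic stem cell (ESC) strain, were compared by RNA sequencing. The comparison used the 4 of the 8 libraries of the series that the labels assign to these groups, 2 PGCLC and 2 iPGC. Both groups carry the strain label BVSC and passage 21. BVSC is a line known for fluorescent reporters driven by regulatory sequences of Prdm1 (Blimp1) and Dppa3 (Stella). PGCLCs were made from BVSC ESCs kept in 2i plus LIF on laminin, first turned into epiblast-like cells and then grown as aggregates, and each library started from 300 to 500 cells. The iPGCs came from hanging drop cultures, and each library started from 1500 cells. The general protocol also names ESC growth in serum and LIF on feeder fibroblasts before embryoid body differentiation, so the ESC culture may have differed as well. Induction route, ESC culture and cell number cannot be told apart between the groups. The other libraries were all of the strain Oct4gfpXCD1. Of these, 2 were embryonic germ cell (EGC) lines, 4 and 7, labelled E9.5, at passage 6 with 500 cells each. The other 2 were samples of about 250 PGCs from E9.5 embryos. The protocol calls the 2 samples of a group biological replicates.

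Germ cells of the mouse arise from the epiblast when BMP signals from neighbouring extraembryonic tissue switch on a small set of transcription factors, among them Prdm1, Prdm14 and Tfap2c, which silence the somatic programme and bring back genes of pluripotency. Both culture methods aim at that step, one through a defined epiblast-like stage and the other through differentiation in embryoid bodies, in which endoderm, mesoderm and other cell types form beside germ cells. Keratins 8, 18, 19 and 7 are filament proteins of simple epithelia, and Spink3 is a secreted inhibitor of trypsin-like proteases known from pancreas and early gut. Tdgf1 (Cripto) is the membrane co-receptor for Nodal, and it is abundant in pluripotent cells.

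Expression was given as FPKM, a level per kilobase of transcript that is also scaled to the mapped fragments of each library. Of 20153 genes in the table, 11083 reached 1 FPKM in at least 2 of the 8 libraries and were tested on log2(FPKM + 1) with limma. All differences below are PGCLC minus iPGC on that scale, which understates the change of genes with low values. The SE and p of a gene draw on its spread within all 4 groups, so EGC and PGC libraries can widen or narrow them. The approximate depth, read from the steps between low FPKM values, was 7.61 M and 16.5 M reads in the PGCLC libraries and 2.59 M and 16.1 M reads in the iPGC libraries. The number of genes at 1 FPKM or more was 9157 and 9722 in the PGCLC libraries and 9836 and 10039 in the iPGC libraries. The median absolute log2 difference within a group was 0.70 between the PGCLC libraries and 0.44 between the iPGC libraries. Between one PGCLC and one iPGC library it ran from 0.50 to 0.70 with a mean of 0.61, which is less than between the PGCLC libraries and more than between the iPGC libraries. The median difference of all tested genes was -0.00, with 5514 genes above 0 and 5569 below, and quartiles of -0.47 and 0.44.

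At a Benjamini-Hochberg adjusted p below 0.05 (limma), 2 genes, or 0.018% of those tested, differed between PGCLCs and iPGCs. Both are loci of short RNAs. Mir3091 was the 1 gene lower in PGCLCs (0.00902%) and Scarna8 the 1 gene higher (0.00902%). The sequences of the mature microRNAs of Mir3091 are shown because this locus had the largest difference of any tested gene. They are from RefSeq (GRCm38.p6), with the seed, bases 2 to 8, in capitals.
mmu-miR-3091-5p, chr2:180257547-180257567, plus strand: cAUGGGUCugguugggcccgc
mmu-miR-3091-3p, chr2:180257580-180257601, plus strand: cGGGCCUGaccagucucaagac
The 2 arms have different seeds.

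The Mir3091 locus, at chr2:180257536-180257611 on the plus strand, is 76 bases long and lies in an intron of Rps21, a gene of the small ribosomal subunit. It was listed at 0 FPKM in both PGCLC libraries, against 1016 and 315 FPKM in the iPGC libraries, and was listed at 0 in all 4 EGC and PGC libraries. The groups did not overlap, and the difference was -9.15 ± 0.68 (SE; adjusted p = 0.00549, limma). Mir3091 passed the 1 FPKM filter through the 2 iPGC libraries alone, so it could only count as lower. The host gene Rps21 had 292 and 134 FPKM in PGCLCs and 337 and 291 FPKM in iPGCs, a difference of -0.66 ± 0.53 (adjusted p = 1, limma). Scarna8, a small Cajal body RNA of a class that guides modification of spliceosomal RNAs, lies at chr4:86586453-86586583 on the minus strand, in an intron of Haus6, which encodes a subunit of the augmin complex of the spindle. Scarna8 had 64.8 and 141 FPKM in PGCLCs and was listed at 0 in both iPGC libraries, while the EGC lines had 154 and 58.6 FPKM and both PGC libraries 0. Its difference was 6.60 ± 0.66 (adjusted p = 0.028, limma). The call of Scarna8 was lost under 9 alternatives, with adjusted p = 0.071 in the replicate block, 0.0533 under quantile normalization and 0.174 to 0.506 when any 1 of the 4 PGCLC and iPGC libraries was left out (limma). That of Mir3091 was lost without PGCLC replicate 1 (adjusted p = 0.131) or 2 (0.267) and without an expression filter (0.0533). Haus6 had 15.3 and 17.0 FPKM in PGCLCs and 12.3 and 12.6 FPKM in iPGCs (adjusted p = 1, limma). Mir5113, chosen here after its values were seen, had 577 and 122 FPKM in PGCLCs and 0 and 0.000354 FPKM in iPGCs and did not pass (8.06 ± 2.24, adjusted p = 0.812, limma). At 76 and 131 bases both loci are shorter than the library fragments, whose FPKM is uncertain, and reads at Mir3091 measure the precursor region and not the mature microRNAs.

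Since so few genes passed, the data are described below by how far the groups lay apart. A gene is called separated when the nearest PGCLC and iPGC libraries were at least 1 apart on the log2 scale. By this measure 162 genes (1.46%) were separated and higher in PGCLCs, and 284 (2.56%) were separated and lower. Groups of 2 that do not overlap were common, with 4084 genes (36.8%), 1917 higher (17.3%) and 2167 lower (19.6%). An exact permutation test of a single gene with 2 libraries a group cannot give a p below 0.3333. At an unadjusted limma p below 0.05 there were 519 genes (4.68%), 221 higher (1.99%) and 298 lower (2.69%). Among the 284 separated lower genes, 34 had reached the 1 FPKM filter through the 2 iPGC libraries alone, and among the 162 separated higher genes 17 had done so through the PGCLC libraries alone. Listed at 0 in both PGCLC libraries but at 1 FPKM or more in both iPGC libraries were 46 genes, and 13 genes showed the opposite.

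**Figure D1:**
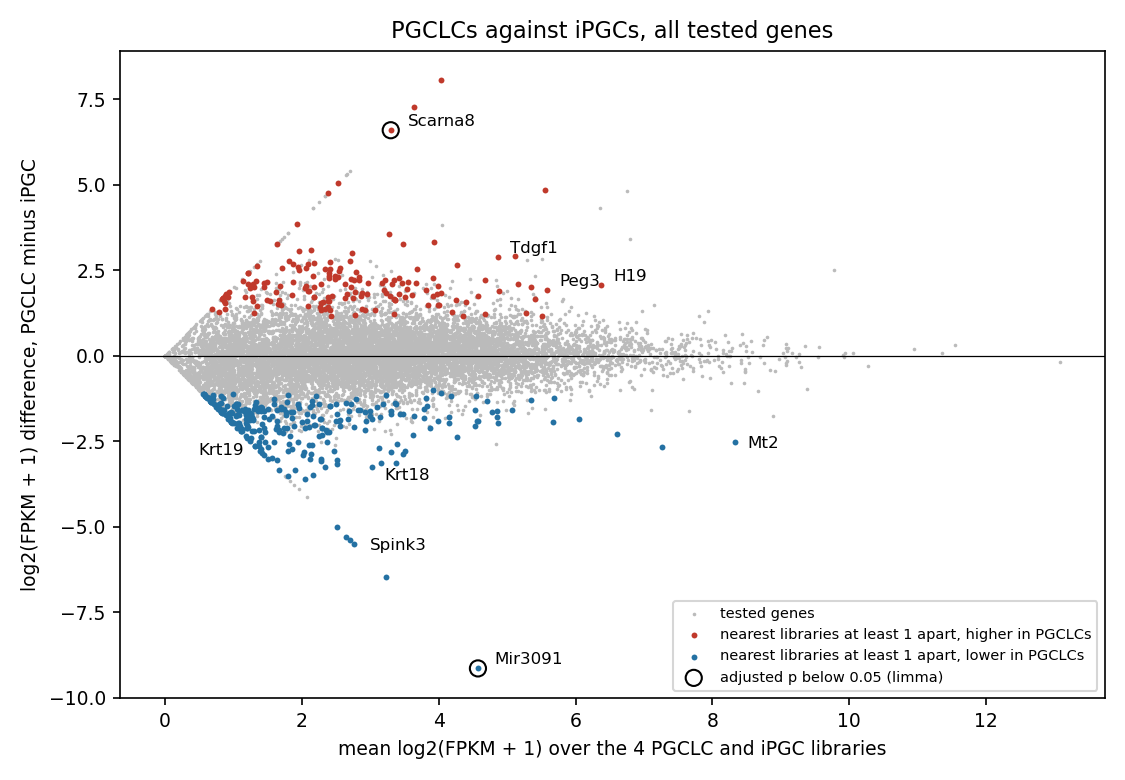
Difference in log2(FPKM + 1), PGCLC minus iPGC (vertical axis), against the mean over the 4 PGCLC and iPGC libraries (horizontal axis) for the 11083 tested genes. Red and blue points are the 162 higher and 284 lower separated genes, and the circles mark Scarna8 and Mir3091, with an adjusted p below 0.05.

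Spink3 (Spink1 in GENCODE M21), on chromosome 18 at chr18:43728082-43737557, had the lowest p after the 2 short RNAs. It was listed at 0 FPKM in both PGCLC libraries, against 60.3 and 32.8 FPKM in iPGCs. The EGC lines had 0 and 0.25 FPKM and the PGC libraries 1.15 and 0 FPKM, so only the iPGC libraries were high. The difference was -5.51 ± 0.64, with an unadjusted p of 1.7e-05 and an adjusted p of 0.0635 (limma), just outside the threshold. Over the alternative settings and left-out libraries the adjusted p of Spink1 ran from 0.0187 to 0.908 (limma).

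Simple-epithelial keratins showed the same order of groups at lower levels. Krt8 was listed at 0 FPKM in both PGCLC libraries, against 2.75 and 3.92 FPKM in iPGCs (difference -2.10 ± 0.54, adjusted p = 0.806, limma). Its filament partner Krt18 had 0.81 and 2.82 FPKM in PGCLCs and 30.0 and 19.5 FPKM in iPGCs (-3.26 ± 0.94, adjusted p = 0.812, limma). Krt19 had 0 and 0.06 FPKM in PGCLCs and 5.57 and 6.09 FPKM in iPGCs (-2.73 ± 0.63, adjusted p = 0.783, limma). Krt7 was listed at 0 in both PGCLC libraries and had 2.19 and 3.73 FPKM in iPGCs (-1.96 ± 0.49, adjusted p = 0.806, limma). For each of the 4 keratins the lower iPGC library lay above both PGCLC libraries and no difference passed the test. One PGC library also had Krt18 at 12.6 and Krt19 at 6.59 FPKM, while the other had 0.89 and 1.83 FPKM.

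Other epithelial genes did not all follow the keratins. The tight junction protein Cldn4 had 23.9 and 14.1 FPKM in PGCLCs and 59.2 and 55.7 FPKM in iPGCs (-1.59 ± 0.51). Grhl2, a transcription factor that maintains epithelial junctions, had 1.12 and 1.08 FPKM in PGCLCs and 11.2 and 5.39 FPKM in iPGCs (-2.07 ± 0.62). Perp, a desmosomal membrane protein and p53 target, went the other way, with 18.7 and 19.03 FPKM in PGCLCs and 2.18 and 4.82 FPKM in iPGCs (2.21 ± 0.64). The adhesion proteins Epcam and Cdh1 overlapped between the groups, with Epcam at 127 and 74.7 FPKM in PGCLCs and 93.4 and 78.7 FPKM in iPGCs, and Cdh1 at 34.7 and 45.1 FPKM in PGCLCs and 47.5 and 41.6 FPKM in iPGCs. Of 38 tested epithelial and keratin genes none passed limma at an adjusted p below 0.05, and 1 higher and 7 lower genes had an unadjusted p below 0.05. In that list 6 genes were separated lower (Krt7, Krt8, Krt18, Krt19, Cldn4 and Grhl2) and 1 higher (Perp), beside 2.56% and 1.46% of all tested genes, and the list's median difference was -0.22. Krt8 and Krt19 were markers given with the comparison, so their part in the count of 6 is no separate result. Krt7 and Krt8 passed the filter through the 2 iPGC libraries alone, so they could only count as lower.

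**Figure D2:**
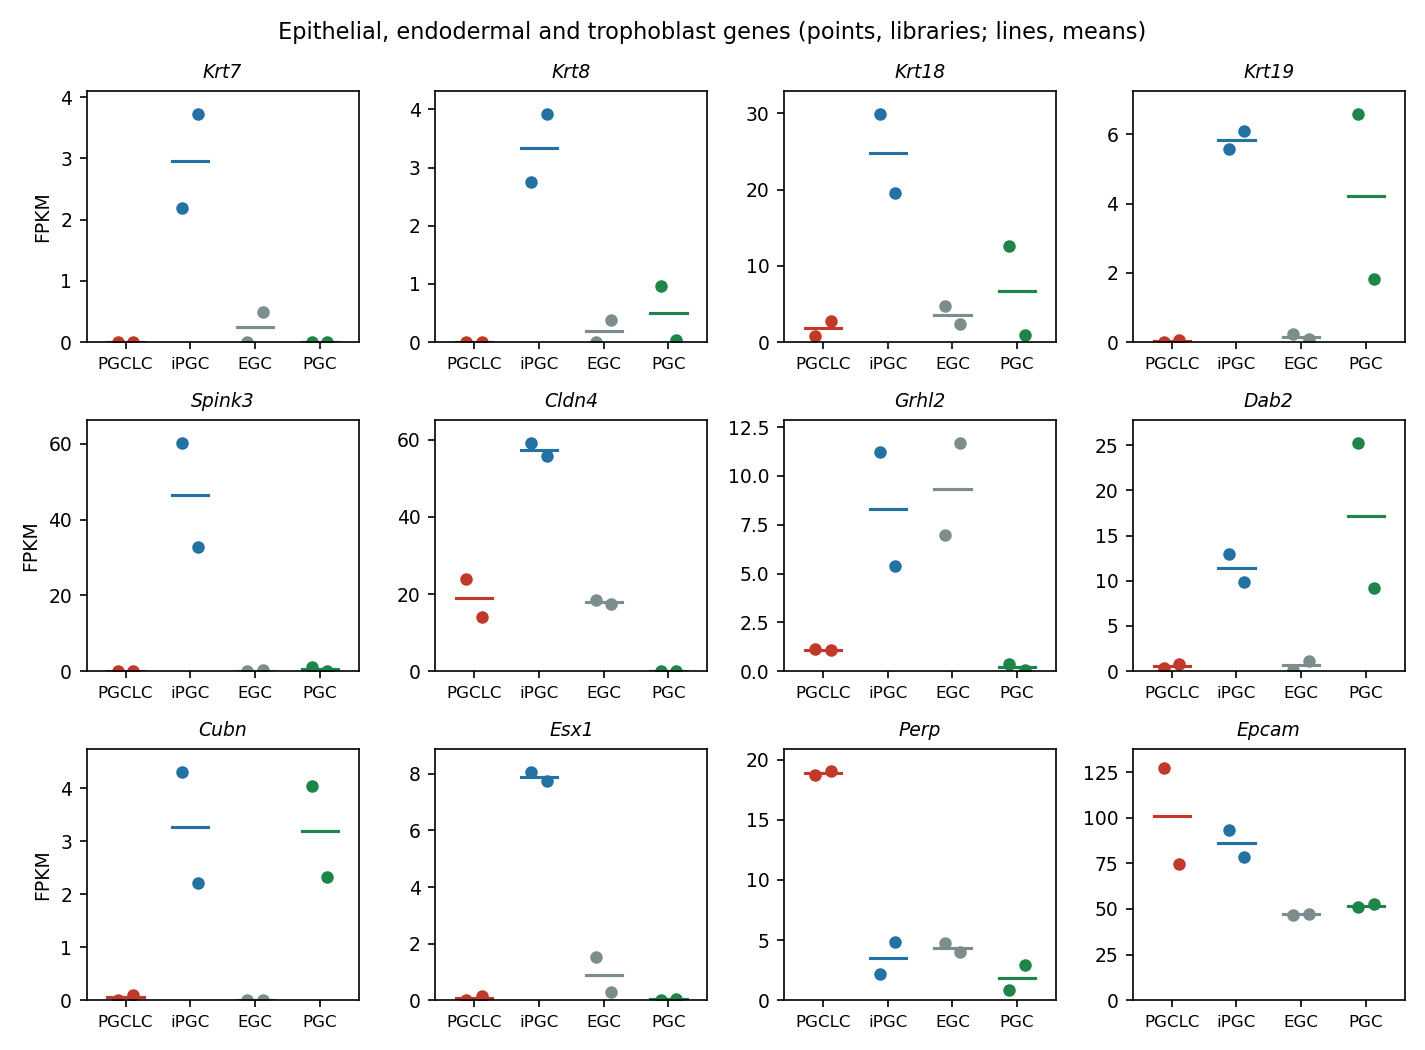
FPKM of 12 epithelial, endodermal and trophoblast genes in the PGCLC, iPGC, EGC and PGC libraries, each point a library and each line the mean of its group. Krt7, Krt8, Krt18, Krt19, Spink3 and Esx1 were higher in both iPGC libraries than in either PGCLC library, Perp was lower in both, and Epcam overlapped.

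Zeb1 encodes a transcription factor known for repressing epithelial genes through E-box motifs. It had 23.2 and 22.1 FPKM in PGCLCs, against 5.45 and 2.65 FPKM in iPGCs, a difference of 2.28 ± 0.63 (adjusted p = 0.812, limma). The 2 PGCLC libraries were close to each other. The EGC lines had 1.25 and 3.82 FPKM and PGCs 3.73 and 2.87 FPKM, all below both PGCLC libraries. The relatives Krt8 and Krt18 are neighbours on chromosome 15 in opposite orientation.

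The promoters of Krt8, Krt18 and Tdgf1 are printed because these genes stood on opposite sides of the comparison. Each is 300 bases from RefSeq (GRCm38.p6), 250 before to 50 after the annotated start, read along the gene's strand. Capitals mark CACCTG, an E-box that ZEB1 is known to bind, searched on both strands as these 6 letters with no overlap with another motif. The motif was chosen after the values of Zeb1 had been seen.
Krt8, chr15:102004293-102004592, minus strand: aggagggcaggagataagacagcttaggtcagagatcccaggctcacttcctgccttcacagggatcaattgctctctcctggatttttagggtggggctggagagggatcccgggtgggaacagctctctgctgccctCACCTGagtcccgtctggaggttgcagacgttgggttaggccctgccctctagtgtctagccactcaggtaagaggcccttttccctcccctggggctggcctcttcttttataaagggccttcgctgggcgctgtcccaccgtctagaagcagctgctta
Krt18, chr15:102027966-102028265, plus strand: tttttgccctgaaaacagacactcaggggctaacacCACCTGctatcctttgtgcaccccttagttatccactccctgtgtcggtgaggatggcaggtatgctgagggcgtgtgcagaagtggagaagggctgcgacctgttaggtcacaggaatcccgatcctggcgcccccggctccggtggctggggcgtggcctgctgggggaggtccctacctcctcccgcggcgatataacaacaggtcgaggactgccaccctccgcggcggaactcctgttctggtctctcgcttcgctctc
Tdgf1, chr9:110946109-110946408, minus strand: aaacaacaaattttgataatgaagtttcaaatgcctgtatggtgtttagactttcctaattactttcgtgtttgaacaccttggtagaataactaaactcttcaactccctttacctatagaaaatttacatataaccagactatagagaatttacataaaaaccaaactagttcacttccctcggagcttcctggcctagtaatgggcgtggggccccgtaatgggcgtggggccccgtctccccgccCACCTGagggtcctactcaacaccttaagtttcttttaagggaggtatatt
The first letter of the match lies 111 bases before the start of Krt8, 214 before that of Krt18 and 1 before that of Tdgf1. CACCTG is present in 6640 of 32851 promoters of this length, or 20.2%. The match is in promoters on both sides of the comparison, and it says nothing about binding.

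Markers of other cell types that can arise in such cultures were then counted. Of 18 tested extraembryonic endoderm markers out of 28 listed, 14 differences were below 0 and 4 above, and 5 genes were separated lower (Dab2, Cited1, Cubn, Lrp2 and Apob), beside 2.56% of all tested genes. The median was -0.96, against -1.88 with a pseudocount of 0.1, -0.31 with one of 5 and -0.61 under quantile normalization. Cited1 passed the filter through the 2 iPGC libraries alone, so it could only count as lower. Dab2, an endocytic adaptor of visceral endoderm, had 0.31 and 0.79 FPKM in PGCLCs and 12.9 and 9.92 FPKM in iPGCs (-3.01 ± 0.69, adjusted p = 0.783, limma). Cited1, a transcriptional co-regulator, had 0 and 0.11 FPKM in PGCLCs and 5.42 and 9.69 FPKM in iPGCs (-2.98 ± 0.51, adjusted p = 0.617, limma). The endocytic receptor Cubn had 0.01 and 0.09 FPKM in PGCLCs and 4.31 and 2.21 FPKM in iPGCs (-1.97 ± 0.55). The lineage-defining factors were near 0 in both groups, with Gata4 at 0 and 0 FPKM in PGCLCs and 0.68 and 0.72 in iPGCs, Gata6 at 0 and 0.13 in PGCLCs and 0.15 and 0.36 in iPGCs, Sox7 at 0 and 0 in PGCLCs and 0 and 0.37 in iPGCs, and Afp below 0.1 in all 4 libraries. The summed FPKM of the tested markers was 190 and 173 in PGCLCs and 180 and 169 in iPGCs, which overlap, because Sparc and Lamb1 made up most of each sum.

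Of 8 tested gut endoderm markers out of 20, 6 differences were below 0 and the median was -1.05. Spink3 and Krt19 were separated lower, beside 2.56% of all tested genes. Both were markers given with the comparison, so their count is no separate result. The sums were 142 and 131 FPKM in PGCLCs and 248 and 205 FPKM in iPGCs. Epcam and Cldn6, both also in the epithelial list, made up most of each sum. The defining factors Foxa2 and Sox17 did not pass the filter. Foxa2 was listed at 0 in both PGCLC libraries and had 0 and 0.53 FPKM in iPGCs, and Sox17 had 0 and 0.02 FPKM in PGCLCs and 0.41 and 0.27 FPKM in iPGCs. Of 11 tested trophoblast markers out of 20, Krt7 and Esx1 were separated lower and Gata2 higher, beside 2.56% and 1.46% of all tested genes. The median was -0.15, and the sums were 33.7 and 46.0 FPKM in PGCLCs and 34.5 and 37.5 FPKM in iPGCs. The placental homeobox gene Esx1 had 0 and 0.16 FPKM in PGCLCs and 8.07 and 7.74 FPKM in iPGCs (-3.05 ± 0.55, adjusted p = 0.696, limma). Gata2, a factor shared with blood and endothelium, had 9.69 and 14.6 FPKM in PGCLCs and 0.76 and 4.09 FPKM in iPGCs (2.11 ± 0.74, adjusted p = 1, limma). The part of any such cells in the differences of Spink3 and the keratins was not tested. In bulk libraries fewer cells of a type and less RNA per cell cannot be told apart.

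Mesoderm genes (11 of 26 tested, median -0.15), neural markers (10 tested, median -0.24), Hox genes (5 of 33 tested, median -0.18), blood and myeloid markers (5 tested, median 0.00) and fibroblast markers (9 of 22 tested, median 0.03) held no separated gene except the neural adhesion gene Ncam1, which was lower in PGCLCs. Their sums overlapped for mesoderm, with 24.9 and 24.6 FPKM in PGCLCs and 34.8 and 14.6 in iPGCs, for neural markers, with 14.4 and 21.3 in PGCLCs and 30.1 and 19.3 in iPGCs, and for blood markers, with 27.5 and 7.15 in PGCLCs and 7.09 and 25.2 in iPGCs. The fibroblast sums were 228 and 176 FPKM in PGCLCs and 177 and 138 FPKM in iPGCs.

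Tdgf1, a marker given with the comparison, was among the genes higher in PGCLCs. It had 95.7 and 64.0 FPKM in PGCLCs and 14.2 and 6.54 FPKM in iPGCs, a difference of 2.89 ± 0.69 (adjusted p = 0.783, limma). The EGC lines were higher still, at 189 and 145 FPKM, and PGCs were at 0.53 and 4.78 FPKM, so PGCLCs lay between EGCs and iPGCs. Of 21 tested genes of the Nodal and Activin pathway Tdgf1 alone was separated, and the median of the list was -0.03. The ligand Nodal had 5.46 and 3.62 FPKM in PGCLCs and 7.18 and 6.69 in iPGCs, and the feedback inhibitor Lefty2 had 10.4 and 1.08 FPKM in PGCLCs and 8.85 and 4.67 in iPGCs. Tgif1, a co-repressor of the pathway, had 15.2 and 25.9 FPKM in PGCLCs and 46.7 and 62.3 FPKM in iPGCs (-1.40 ± 0.49).

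Genes were named by 1 rule, the 15 with the widest separation in each direction. The rule left out short RNA classes and genes whose mean did not reach 10 FPKM in the group where it was higher. It also left out predicted genes, genes with clone names, ribosomal protein genes and pseudogenes, so the ranking does not cover these. On the higher side the rule ended at Mospd2, with a separation of 1.68, and left out Rcc1l at 1.63. On the lower side it ended at Hps4 and left out Ada, both at -1.92. None of these 30 genes passed the adjusted threshold, and what follows describes their values.

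Higher in PGCLCs, Tnnt3, a troponin of fast skeletal muscle at chr7:142498836-142516009, had 63.9 and 35.2 FPKM in PGCLCs and 4.01 and 3.65 FPKM in iPGCs (3.33 ± 0.70, adjusted p = 0.783, limma). Parva, an actin-binding protein of focal adhesions, had 8.05 and 12.99 FPKM in PGCLCs and 0.28 and 0.40 FPKM in iPGCs (3.07 ± 0.66, adjusted p = 0.783, limma). Cep41, a centrosomal and ciliary protein, had 29.2 and 38.5 FPKM in PGCLCs and 5.21 and 1.06 FPKM in iPGCs (3.27 ± 0.75). For each of these the PGCLC libraries lay closer to each other than to either iPGC library, which the choice of genes by separation favours. Calml4, a calmodulin-like protein, was listed at 0 in both iPGC libraries and varied between the PGCLC libraries, with 34.0 and 5.06 FPKM. Gatb (Pet112 in the table), which acts in mitochondrial translation, had 15.96 and 6.84 FPKM in PGCLCs and 0.69 and 0.83 FPKM in iPGCs. Rmi2, a partner of the Bloom helicase in DNA repair, had 15.6 and 8.74 FPKM in PGCLCs and 1.11 and 1.32 FPKM in iPGCs.

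Tceanc2, Gng13, Spryd4 and Hacl1 were also in the higher group. Each shares exon bases with a gene on the opposite strand (Tmem59, Chtf18, Gls2 and Btd), so without a statement on strand their FPKM is uncertain. Tceanc2 also shares 1293 exon bases with Gm12802 on the opposite strand. Hacl1 shares 1540 exon bases with Gm49387 on its own strand, so knowing the strand would not settle its FPKM. Rmi2, Zeb1, Bmp4, Dab2 and Hps4 also share exon bases with annotated loci that were not analysed here. Hacl1, an enzyme of peroxisomal fatty acid oxidation, had 89.6 and 24.6 FPKM in PGCLCs and 6.85 and 6.61 FPKM in iPGCs. Mospd2, a membrane protein of contact sites, had 16.4 and 19.07 FPKM in PGCLCs and 2.38 and 4.45 FPKM in iPGCs (2.12 ± 0.55).

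On the lower side Slc4a8, a sodium-driven bicarbonate exchanger, had 0.58 and 0.78 FPKM in PGCLCs and 14.1 and 12.1 FPKM in iPGCs (-3.07 ± 0.58, adjusted p = 0.696, limma). Khk, the first enzyme of fructose breakdown, had 0 and 1.88 FPKM in PGCLCs and 14.4 and 11.5 FPKM in iPGCs (-3.03 ± 0.67, adjusted p = 0.783, limma). Ccdc92 had 3.90 and 1.42 FPKM in PGCLCs and 17.8 and 25.4 FPKM in iPGCs (-2.69 ± 0.59). The iPGC libraries were close together for all of these, while the PGCLC libraries were close together for Slc4a8 only. Ncln, a membrane protein of the endoplasmic reticulum that takes part in restraining Nodal signals in zebrafish, had 3.42 and 3.21 FPKM in PGCLCs and 27.3 and 22.1 FPKM in iPGCs. Car4, a membrane-bound carbonic anhydrase, had 5.85 and 0.77 FPKM in PGCLCs and 35.7 and 25.0 FPKM in iPGCs. The linker histone gene Hist1h1a had 2.58 and 4.23 FPKM in PGCLCs and 19.9 and 41.4 FPKM in iPGCs.

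Clip3, a microtubule-associated protein, had 0 and 0.07 FPKM in PGCLCs and 5.18 and 21.3 FPKM in iPGCs. Hps4, a subunit of a complex needed for lysosome-related organelles, had 0 and 1.65 FPKM in PGCLCs and 23.04 and 9.04 FPKM in iPGCs. B4galt3, Rnft1, Large2 (Gyltl1b in the table) and Alkbh3 completed the group, and each shares exon bases with another annotated gene (Ppox, Rps6kb1, Pex16 and Alkbh3os1). Alkbh3 also shares 172 exon bases with Gm27027 on its own strand. Large2, a glycosyltransferase that extends sugar chains on dystroglycan, had 0.42 and 5.37 FPKM in PGCLCs and 24.5 and 26.5 FPKM in iPGCs. Alkbh3, a DNA and RNA demethylase, had 1.25 and 6.57 FPKM in PGCLCs and 27.7 and 30.9 FPKM in iPGCs.

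**Figure D3:**
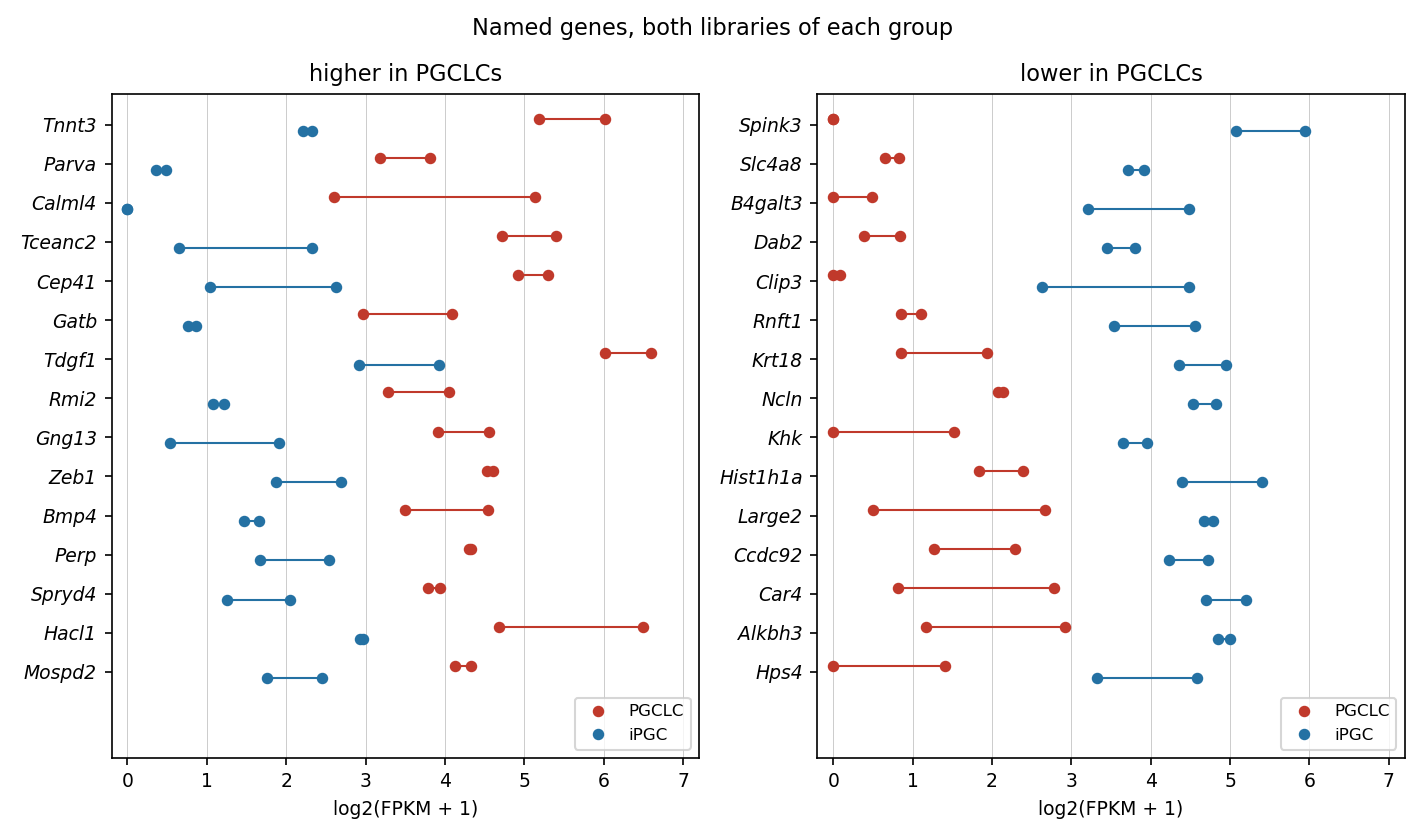
Values of the 30 named genes in log2(FPKM + 1), with both PGCLC libraries in red and both iPGC libraries in blue, joined within each group. The left panel holds the genes higher in PGCLCs and the right panel those lower, and no pair of groups overlaps, which the rule requires.

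Genes of germ cell specification were present in both groups, as the labels have it. Prdm1 had 40.6 and 33.0 FPKM in PGCLCs and 21.2 and 22.8 FPKM in iPGCs (0.71 ± 0.57, adjusted p = 1, limma). In the EGC lines Prdm1 was at 2.34 and 2.20 FPKM, and in PGCs at 14.9 and 42.5 FPKM. Tfap2c had 37.0 and 30.4 FPKM in PGCLCs and 26.9 and 34.4 FPKM in iPGCs (0.14 ± 0.45). Dppa3, the maternal factor Stella that marks early germ cells, had 726 and 400 FPKM in PGCLCs and 423 and 317 FPKM in iPGCs (0.55 ± 0.51). Tfap2c and Dppa3 overlapped between the groups, and for Prdm1 both PGCLC libraries were higher. BVSC reporters carry regulatory sequences of Prdm1 and Dppa3, and whether reporter transcripts add to these 2 values was not tested. Kit, the receptor germ cells need for survival and migration, had 49.3 and 30.4 FPKM in PGCLCs and 18.1 and 21 FPKM in iPGCs (0.95 ± 0.57, adjusted p = 1, limma).

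Prdm14 had 20.8 and 6.78 FPKM in PGCLCs and 4.29 and 10.6 FPKM in iPGCs, which overlap. Nanos3, an RNA-binding protein that protects germ cells from apoptosis, was low in both, with 6.98 and 2.30 FPKM in PGCLCs and 0.74 and 2.13 FPKM in iPGCs, and PGCs had 7.37 and 22.3 FPKM. Of 22 tested early germ cell genes 13 differences were above 0 and 9 below, with a median of 0.23. The only separated member was Fgf8, a signalling ligand of the primitive streak, listed at 0 in both PGCLC libraries and at 3.02 and 2.39 FPKM in iPGCs (-1.88 ± 0.53, adjusted p = 0.812, limma). Lin28a, an RNA-binding protein that blocks let-7 processing, had 11.2 and 6.87 FPKM in PGCLCs and 25.4 and 19.5 FPKM in iPGCs (-1.25 ± 0.55).

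Genes of later germ cells had a median of 0.30 over 17 tested members, with 10 above 0 and 7 below. Asz1, which acts with piRNAs in the male germ line, had 10.8 and 4.59 FPKM in PGCLCs and 0.75 and 1.47 FPKM in iPGCs (1.97 ± 0.58, adjusted p = 0.853, limma). Dazl, an RNA-binding protein that licenses germ cells for sexual differentiation, had 11.9 and 9.65 FPKM in PGCLCs and 4.26 and 7.00 FPKM in iPGCs (0.85 ± 0.57). Both genes were higher in PGCLCs than in the EGC and PGC libraries as well, where Dazl reached at most 1.12 FPKM and Asz1 at most 0.12 FPKM. Ddx4, the germ cell helicase Vasa, overlapped, with 10.1 and 3.20 FPKM in PGCLCs and 4.30 and 2.23 FPKM in iPGCs. Brdt, a bromodomain protein of spermatocytes, was separated the other way, with 1.39 and 1.31 FPKM in PGCLCs and 4.01 and 4.32 FPKM in iPGCs (-1.14 ± 0.49).

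**Figure D4:**
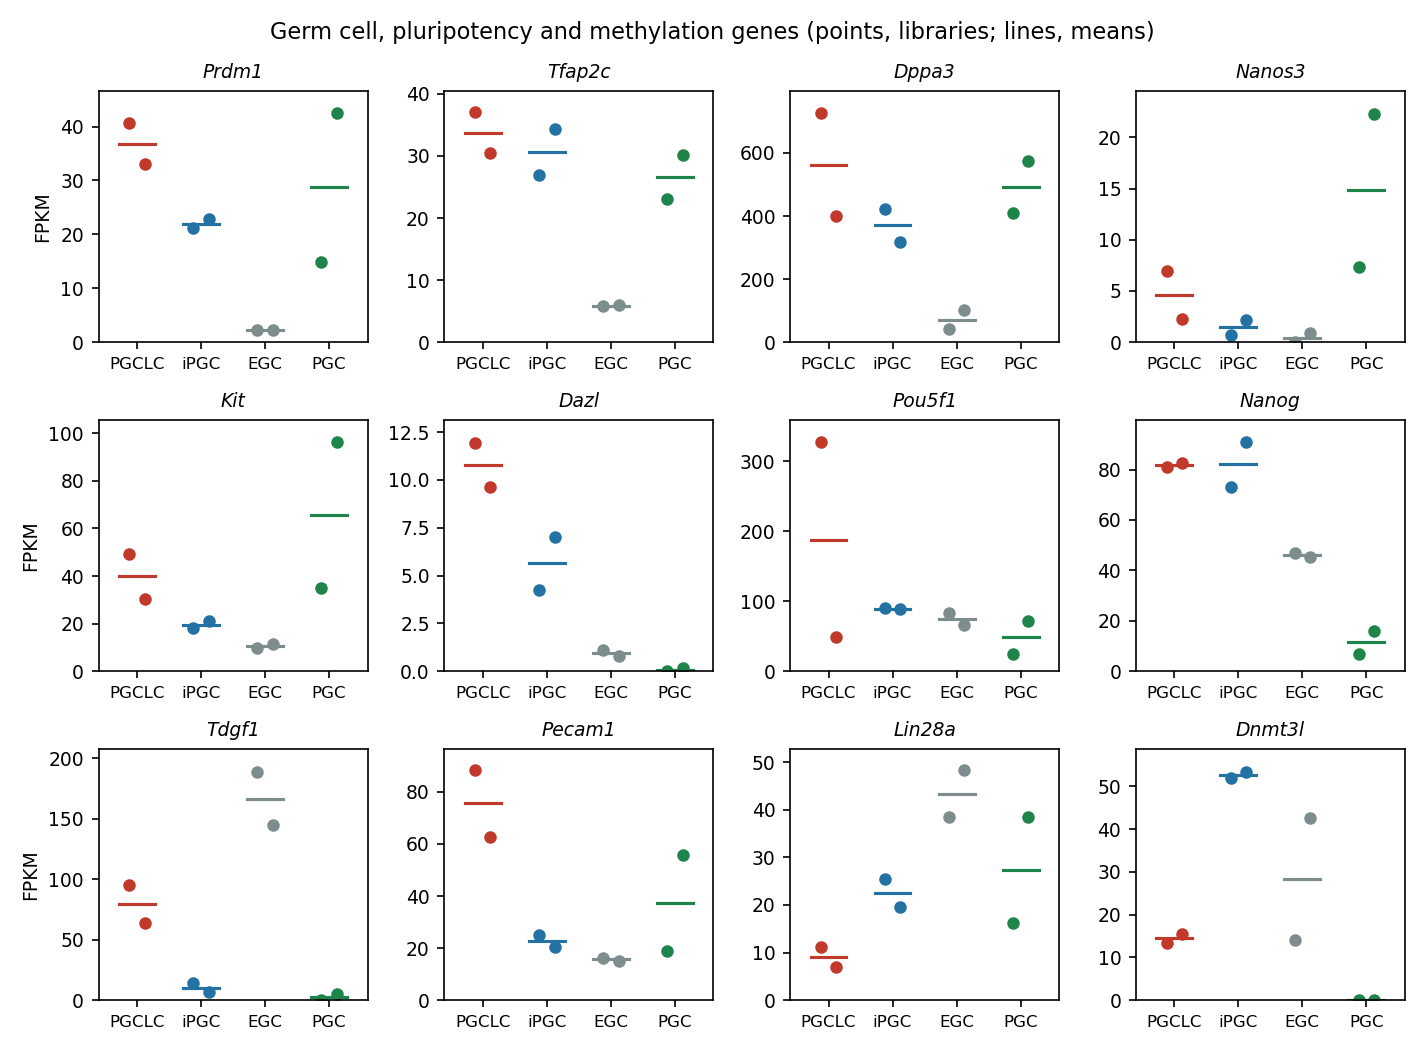
FPKM of 12 germ cell, pluripotency and methylation genes in the PGCLC, iPGC, EGC and PGC libraries, each point a library and each line the mean of its group. Prdm1, Kit, Dazl, Tdgf1 and Pecam1 were higher in both PGCLC libraries than in either iPGC library, Lin28a and Dnmt3l were lower, and Nanog, Tfap2c and Dppa3 overlapped.

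Few pluripotency genes were separated. Nanog had 81.2 and 82.6 FPKM in PGCLCs and 73.2 and 90.9 FPKM in iPGCs (0.01 ± 0.48), and Sox2 had 19.05 and 17.8 FPKM in PGCLCs and 24.6 and 26.8 FPKM in iPGCs (-0.46 ± 0.45). Pou5f1 spread widely between the PGCLC libraries, with 327 and 48.6 FPKM, on both sides of the 89.9 and 89.0 FPKM in iPGCs. Of 19 core pluripotency genes 13 differences were above 0, with a median of 0.19, and under quantile normalization 10 were above 0 with a median of 0.05. Of 22 naive pluripotency genes 14 were above 0, the median was 0.38, and Pecam1, an adhesion molecule shared by naive cells, germ cells and endothelium, was separated, with 88.4 and 62.7 FPKM in PGCLCs and 25.0 and 20.5 FPKM in iPGCs (1.67 ± 0.56, adjusted p = 0.997, limma).

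Of 17 tested genes of the primed epiblast 12 differences were below 0, and 9 under quantile normalization. The median was -0.25, and it ran from -0.75 with a pseudocount of 0.1 to -0.05 with one of 5. Fgf5, Grhl2 and Ncam1 were separated lower, beside 2.56% of all tested genes. Grhl2 is also in the epithelial list, Ncam1 in the neural list and Fgf5 in the FGF list, so these are not separate results. Fgf5, a marker of the post-implantation epiblast, had 0.05 and 0 FPKM in PGCLCs and 1.38 and 1.66 FPKM in iPGCs (-1.29 ± 0.53). Otx2, a factor that holds back the germ cell fate in epiblast cells, had 29.0 and 0.49 FPKM in PGCLCs and 8.09 and 5.37 FPKM in iPGCs, so the 2 PGCLC libraries lay on opposite sides of the iPGCs.

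Among signalling genes, Bmp4, the ligand used to induce germ cells, had 22.4 and 10.3 FPKM in PGCLCs and 2.16 and 1.76 FPKM in iPGCs (2.46 ± 0.92, adjusted p = 1, limma). It was the only separated gene of 20 tested in the BMP pathway, whose median was -0.30. In that list 2 genes were higher and 4 lower without overlap, beside 17.3% and 19.6% of all tested genes. The BMP targets Id1 and Id3 overlapped. Id1 had 2.46 and 4.93 FPKM in PGCLCs and 6.27 and 3.91 in iPGCs. Id3 had 23.4 and 17.7 FPKM in PGCLCs and 22.0 and 5.59 in iPGCs. The targets Id4 and Msx2 were lower in PGCLCs without overlap. Id4 had 0.63 and 0.18 FPKM in PGCLCs and 1.57 and 1.03 in iPGCs. Msx2 had 0 and 1.38 FPKM in PGCLCs and 4.21 and 2.65 in iPGCs. In the retinoic acid pathway, Crabp1 and Crabp2, cytoplasmic binding proteins for retinoic acid, were separated lower. Crabp1 had 3.94 and 8.20 FPKM in PGCLCs and 20.2 and 23.4 FPKM in iPGCs (-1.75 ± 0.75). Crabp2 had 0 and 1.57 FPKM in PGCLCs and 11.1 and 6.04 FPKM in iPGCs (-2.52 ± 0.80). Neither passed the test, with an adjusted p of 1 for Crabp1 and 0.993 for Crabp2 (limma). The median of the 14 tested genes of the pathway was -0.07.

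The LIF and Stat3 pathway had a median of 0.44 over 17 genes, with 11 above 0 and none separated. Il6st, the shared receptor gp130, had 76.6 and 50.1 FPKM in PGCLCs and 20.9 and 32.8 FPKM in iPGCs (1.21 ± 0.50). Stat3 itself overlapped, with 28.8 and 14.9 FPKM in PGCLCs and 11.7 and 18.2 FPKM in iPGCs. The FGF and MAPK pathway had a median of 0.04 over 33 genes. Fgf5 and Fgf8, both also in lists above, were separated lower, beside 2.56% of all tested genes. The Wnt pathway had a median of -0.35 over 35 genes, with 23 below 0 and none separated.

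Of 27 tested genes of DNA methylation and demethylation, Dnmt3l alone was separated. Dnmt3l, the cofactor of the de novo methyltransferases that is needed to set germ-line imprints, had 13.4 and 15.6 FPKM in PGCLCs and 51.8 and 53.4 FPKM in iPGCs (-1.80 ± 0.60, adjusted p = 1, limma). The libraries of each group were close together, and Dnmt3l was at 14.1 and 42.5 FPKM in the EGC lines and listed at 0 in both PGC libraries. The methyltransferase Dnmt3b had 11.6 and 8.44 FPKM in PGCLCs and 21.3 and 14.5 FPKM in iPGCs (-0.77 ± 0.76). Tet2, which oxidises methylcytosine, had 8.996 and 13.8 FPKM in PGCLCs and 4.23 and 3.57 FPKM in iPGCs (1.31 ± 0.60). Of 38 Polycomb and histone methylation genes only Kdm6b was separated, lower in PGCLCs, and the median was 0.00.

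Imprinted genes, which are expressed from 1 parental copy as set by methylation at control regions, lay on both sides of the comparison. Peg3, a paternally expressed zinc finger gene, had 105 and 79.4 FPKM in PGCLCs and 25.1 and 22.2 FPKM in iPGCs (1.91 ± 0.47, adjusted p = 0.806, limma). Usp29, its neighbour in the same imprinted domain, was separated the other way, with 0 and 0.60 FPKM in PGCLCs and 3.19 and 2.39 FPKM in iPGCs (-1.58 ± 0.57). H19, a maternally expressed noncoding RNA, had 117 and 244 FPKM in PGCLCs and 35.7 and 43.4 FPKM in iPGCs (2.08 ± 0.86, adjusted p = 1, limma). Its reciprocally imprinted neighbour Igf2 had 4.24 and 87.7 FPKM in PGCLCs and 48.6 and 47.6 FPKM in iPGCs, so the PGCLC libraries differed by more than the groups did. Tnnt3, described above, lies on the same stretch of chromosome 7 as H19, at chr7:142575529-142578143. Cdkn1c, a maternally expressed inhibitor of cyclin-dependent kinases, had 0.52 and 0.16 FPKM in PGCLCs and 8.35 and 7.98 FPKM in iPGCs (-2.79 ± 1.18, adjusted p = 1, limma). That SE also draws on the PGC libraries, which had Cdkn1c at 21.8 and 0.15 FPKM.

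Of 14 maternally expressed imprinted genes H19 was separated higher and Mirg and Cdkn1c lower, with a median of 0.08 and a mean of -0.24, which differ in sign. Of 22 paternally expressed ones Peg3 was separated higher and Usp29 lower, 13 differences were below 0, and the median was -0.67. Expression from each parental copy was not measured.

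The metallothioneins, small proteins that bind zinc and copper, were lower in PGCLCs. Mt2 had 162 and 110 FPKM in PGCLCs and 614 and 973 FPKM in iPGCs (-2.52 ± 0.53, adjusted p = 0.783, limma), with the EGC lines at 296 and 420 FPKM and PGCs at 9.45 and 3.01 FPKM. Mt1 had 82.4 and 43.0 FPKM in PGCLCs and 274 and 543 FPKM in iPGCs (-2.67 ± 1.23, adjusted p = 1, limma). The PGC libraries, which also enter that SE, had Mt1 at 38.0 and 0.63 FPKM. The groups did not overlap for either gene, and the other 6 tested metallothionein and zinc genes were not separated.

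Genes of antigen presentation and the interferon response included 3 that were lower in PGCLCs. The immunoproteasome subunit Psmb9 was listed at 0 FPKM in both PGCLC libraries and had 8.32 and 4.01 FPKM in iPGCs (-2.77 ± 0.61, adjusted p = 0.783, limma). The interferon-responsive membrane protein Bst2 had 8.73 and 21.4 FPKM in PGCLCs and 45.3 and 72.3 FPKM in iPGCs (-1.98 ± 0.65), and B2m, the light chain of class I molecules, had 2.69 and 0.54 FPKM in PGCLCs and 7.48 and 13.9 FPKM in iPGCs. These were the separated genes of 12 tested, beside 2.56% of all tested genes, and 7 differences were below 0 and 5 above, with a median of -0.29.

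Cytoskeleton genes showed small differences of mostly 1 sign. Of 35 tested, 30 were below 0 and 5 above, and 29 and 6 under quantile normalization. The median was -0.43 beside -0.00 for all tested genes, and none was separated. Without overlap 14 genes were lower and 1 higher, beside 19.6% and 17.3% of all tested genes. The sums were 1886 and 1196 FPKM in PGCLCs and 1768 and 1953 FPKM in iPGCs, so 1 PGCLC library lay within the iPGC range. Tpm1, an actin-coating tropomyosin, had 108 and 61.7 FPKM in PGCLCs and 154 and 155 FPKM in iPGCs (-0.91 ± 0.41), and Actb had 527 and 320 FPKM in PGCLCs and 523 and 610 FPKM in iPGCs (-0.46 ± 0.34). The extracellular matrix list had a median of -0.17 over 32 genes, and its only separated member was the basement membrane proteoglycan Hspg2 (perlecan), with 4.34 and 8.25 FPKM in PGCLCs and 29.5 and 29.2 FPKM in iPGCs (-2.11 ± 0.66, adjusted p = 0.993, limma).

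Metabolic lists had medians within the quartiles of all tested genes. Glycolysis had a median of 0.14 over 25 genes, oxidative phosphorylation -0.09 over 34, cholesterol synthesis 0.25 over 25 and lipid handling -0.29 over 20. Ndufb8, a subunit of respiratory complex I, was the separated exception in its list, with 25.9 and 44.4 FPKM in PGCLCs and 129 and 122 FPKM in iPGCs (-1.85 ± 0.49, adjusted p = 0.812, limma). In glycolysis Pfkfb3, which makes an activator of phosphofructokinase, was separated higher, with 6.15 and 8.44 FPKM in PGCLCs and 1.11 and 1.91 FPKM in iPGCs, and the enolase Eno2 lower, with 0 and 0.58 FPKM in PGCLCs and 3.94 and 2.95 FPKM in iPGCs. The fatty acid carrier Fabp3 had 40.6 and 15.3 FPKM in PGCLCs and 88.3 and 111 FPKM in iPGCs (-1.94 ± 0.65).

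Cell cycle genes held 1 separated member, Cdkn1c, among 35 cyclins, kinases and mitosis genes (median -0.19) and 14 inhibitors (median -0.08). The p53 targets had a median of -0.12 over 25 genes, with Perp separated higher. The 20 apoptosis regulators had a median of -0.13, and among them Bmf, a pro-apoptotic member of the Bcl2 family, was separated lower, with 1.56 and 3.47 FPKM in PGCLCs and 13.2 and 9.29 FPKM in iPGCs (-1.84 ± 0.79). Immediate early and stress genes had a median of -0.27 over 26 genes and Myc and growth genes 0.19 over 23, and neither list held a separated gene. In none of the 41 lists did a member pass limma at an adjusted p below 0.05.

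**Figure D5:**
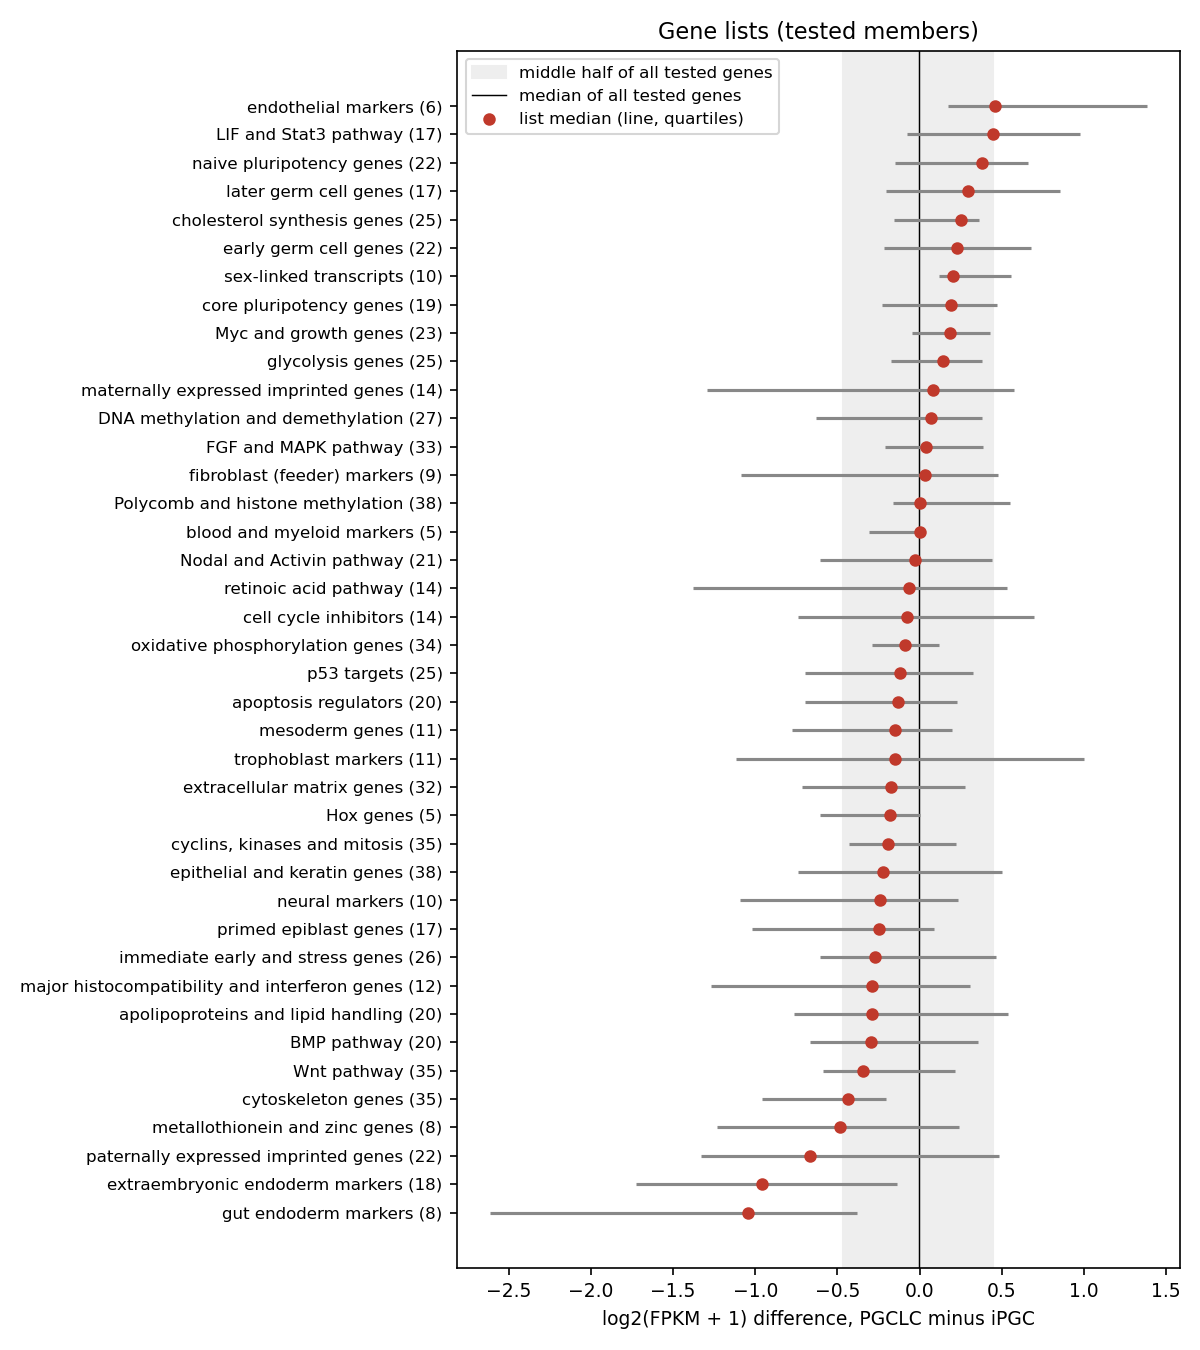
Median difference in log2(FPKM + 1), PGCLC minus iPGC, of each list with at least 5 tested members (number in brackets). Red points are medians, lines run between the quartiles of the list, and the grey band spans the quartiles of all tested genes, -0.47 to 0.44. Only paternally expressed imprinted genes, both endoderm lists and metallothioneins have a median below the band, and endothelial markers and the LIF and Stat3 pathway lie at its upper edge.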

How the data were processed

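RNA of PGCLCs, iPGCs, EGC lines and E9.5 PGCs was amplified with the Ovation RNA-Seq System V2 and sequenced as 50-base single-end reads, 8 libraries pooled in 2 lanes, per the labels' protocols. The authors deposited 1 table of FPKM, with 1 column per library. TopHat2, Cufflinks and the GRCm38 (mm10) build are named in the submitters' processing notes; for the versions, the annotation and the use of strand, nothing is given in the sources used here. The spike-in RNA was not analysed.

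The table held 20171 entries, of which 18 repeats were dropped, and 19769 identifiers were found in GENCODE M21, which gave symbols and coordinates. Genes at 1 FPKM or more in 2 or more libraries (11083) entered limma 3.58.1 in R 4.3.3 as log2(FPKM + 1), with a robust fit and a variance trend. All 8 libraries entered 1 fit with 4 groups and 4 residual degrees of freedom, p-values were two-sided and were adjusted by Benjamini-Hochberg over all tested genes, and the fit was tested on simulated data. A listed 0 can be a failed estimate, so no fold is given against it. The groups compared, the gene lists and the tests were chosen with earlier results of these data known. Named genes are both short RNAs past the threshold and the 15 widest separations in each direction at a mean of at least 10 FPKM. Short RNA classes, predicted genes, genes with clone names, ribosomal protein genes and pseudogenes were left out of the ranking by separation. Other genes named with values are list members, hosts of a named locus, the genes next in the ranking, neighbours of an imprinted list member, or Mir5113. With 2 libraries per group, p-values measure only the spread between these samples. Alternatives were the pseudocount, the filter, quantile or median scaling, the variance model, a replicate block and leaving out each library; rescaling without small RNA genes was chosen after seeing the data. Some members of the lists are not reported here.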

Additional observations from a re-analysis of the deposited data

How the results depend on the processing

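The count of genes past the adjusted threshold, 2 in the fit described, was 1 with a pseudocount of 5, 1 with quantile normalization, 1 in a test against a minimum log2 difference of 1, 0 without an expression filter (749 genes at an unadjusted p below 0.05, limma) and 4 in a fit of the PGCLC and iPGC libraries alone. It was 0 after rescaling without small RNA genes (425 at an unadjusted p below 0.05, limma), an alternative chosen after seeing the data that removes both called loci by construction. Leaving out 1 library at a time gave 0 to 5 calls, with 0 without PGCLC replicate 1 (379 at an unadjusted p below 0.05, limma), 0 without PGCLC replicate 2 (851), 3 without iPGC replicate 1, 4 without EGC replicate 4 and 5 without EGC replicate 7; the remaining library of a group was assumed to vary like the other groups. Separated genes numbered 271 higher and 541 lower in PGCLCs with a pseudocount of 0.1, 39 higher and 55 lower with a pseudocount of 5, 17 higher and 35 lower at a separation of at least 2, and 157 lower with a filter at 5 FPKM. The cause of these shifts was not tested.

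With a replicate block 1 gene was called (478 at an unadjusted p below 0.05, limma). Deviations of same-numbered libraries correlated at 0.058 between PGCLCs and iPGCs. No label says whether the numbers pair the samples, and with 1 difference per group this correlation cannot decide it.

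Over the 32 named genes none of 670 values under alternatives turned direction, which the choice of genes by separation nearly fixes and which is no sign of stability. Mir3091 passed the threshold except without an expression filter (adjusted p = 0.0533, limma) and without PGCLC replicate 1 (0.131) or 2 (0.267), and Scarna8 lost its call under 9 alternatives, with adjusted p from 0.00467 to 0.506 over all of them (limma). Spink3 (Spink1) passed with no variance trend (adjusted p = 0.0463, limma) and with library weights (0.0187). Of 492 list medians under alternatives 35 changed sign, among them trophoblast markers, at 0.01 with a pseudocount of 5. Depth limits genes near 1 FPKM, above all in the iPGC library of 2.59 M reads, and counting errors cannot be had from FPKM.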

Other observations

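Of 17 listed endothelial markers 6 were tested, with 5 differences above 0 and 1 below, a median log2(FPKM + 1) difference of 0.46, PGCLC minus iPGC, and summed levels of 134 and 93.8 FPKM in PGCLCs and 63.4 and 57.4 FPKM in iPGCs. Tek, the angiopoietin receptor, had 11.96 and 21.5 FPKM in PGCLCs and 0.29 and 3.84 FPKM in iPGCs (2.77 ± 0.74, adjusted p = 0.812, limma), while at most 0.36 FPKM was seen in EGC and PGC libraries. Tek and Pecam1 were the separated members, and the defining markers were near 0, with Kdr at 0 FPKM in each PGCLC library and 0.49 and 0.41 FPKM in iPGCs, and Cdh5 at 0.34 and 0.02 FPKM in PGCLCs and 0 and 0.13 FPKM in iPGCs. Egfl7, a secreted factor of endothelium, lay the other way, with 25.5 and 4.20 FPKM in PGCLCs and 33.95 and 27.5 FPKM in iPGCs (-1.43). Spred2, an inhibitor of MAPK signalling, had 79.5 and 37.6 FPKM in PGCLCs and 19.2 and 18.4 FPKM in iPGCs (1.49 ± 0.52). Ddit4, an inhibitor of mTOR signalling induced by stress, had 38.0 and 11.8 FPKM in PGCLCs and 4.28 and 5.58 FPKM in iPGCs (1.92 ± 0.67). Neither passed the test, with adjusted p = 1 for both (limma).

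In the imprinted cluster around Cdkn1c on chromosome 7, the transporter gene Slc22a18 had 0 and 0.96 FPKM in PGCLCs and 2.39 and 4.77 FPKM in iPGCs (-1.66 ± 0.55, adjusted p = 0.997, limma). Slc22a18 passed the filter through the 2 iPGC libraries alone, so it could only count as lower. Phlda2, a growth-restraining gene of the same cluster, had 2.01 and 30.2 FPKM in PGCLCs and 32.0 and 32.1 FPKM in iPGCs, so 1 PGCLC library was near the iPGCs. Of 10 tested sex-linked transcripts, with a median of 0.20, Eif2s3y, a translation factor gene on the Y chromosome, was the separated member, at 21.3 and 30.5 FPKM in PGCLCs and 9.97 and 7.27 FPKM in iPGCs. Genes typical of 2-cell-like cells were mostly below the filter, with 1 of 20 tested.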
